A study of Mus musculus with 6 samples.

Results

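The 6 actin isoform genes of the mouse (Acta1, Actc1, Acta2, Actg2, Actb and Actg1) and 2 noncoding transcripts beside Actc1 (C130080G10Rik and A530058N18Rik) were followed in quadriceps muscle of young pups. They were taken by gene symbol from the deposited gene counts. The 8 symbols matched 9 of 54532 Ensembl genes, because A530058N18Rik has 2 Ensembl entries, and 8 of the 9 passed the filter on low counts. They were selected on their measured counts in the same comparison of Myf5Cre-Pcyt2 with control muscle, so those differences are given as a description, without a test.

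The tissue came from pups at postnatal day 10, fed chow, with 3 libraries of Myf5Cre-Pcyt2 pups (genotype Myf5Cre-Pcyt2 flox/flox) and 3 libraries of control pups (genotype Pcyt2 flox/flox). Both groups carry the floxed Pcyt2 allele, and the labels give Cre for the first group only, so that loss of Pcyt2 and presence of the Cre transgene cannot be told apart. Myf5 is switched on in muscle precursors, so Cre driven by it acts mainly in the muscle lineage, while the sample also holds vessels, nerves and connective tissue. Pcyt2 encodes the rate-limiting enzyme of phosphatidylethanolamine synthesis from ethanolamine. In bulk tissue, fewer cells of a type and less RNA per cell cannot be told apart.

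Actin monomers polymerise into the thin filaments that myosin pulls on in muscle and into the cortical networks of other cells. Mammals make a skeletal (Acta1) and a cardiac (Actc1) alpha-actin in striated muscle, a vascular (Acta2) and an enteric (Actg2) actin in smooth muscle, and cytoplasmic beta-actin (Actb) and gamma-actin (Actg1) in nearly all cells. Developing skeletal muscle makes much cardiac and some vascular alpha-actin, and skeletal alpha-actin takes their place as the fibres mature. Serum response factor (SRF) drives many actin genes through the CArG box, a short promoter element.

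The promoters of the striated and vascular alpha-actins and of C130080G10Rik are shown because the results turn on these genes. Each run holds 250 bases before and 50 bases after the RefSeq gene start (GRCm38.p6), written 5′ to 3′ on the gene's strand. Capitals mark a CArG box or a TATAAA match. The windows are chr2:114052826-114053125 (minus strand) for Actc1, chr8:123894726-123895025 (minus) for Acta1, chr19:34255324-34255623 (minus) for Acta2 and chr2:114054146-114054445 (plus) for C130080G10Rik.
Actc1: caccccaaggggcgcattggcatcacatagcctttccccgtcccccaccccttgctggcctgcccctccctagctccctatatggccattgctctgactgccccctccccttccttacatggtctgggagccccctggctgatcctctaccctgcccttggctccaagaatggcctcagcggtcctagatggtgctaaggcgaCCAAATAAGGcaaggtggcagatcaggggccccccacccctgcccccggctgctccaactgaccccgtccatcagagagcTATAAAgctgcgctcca
Acta1: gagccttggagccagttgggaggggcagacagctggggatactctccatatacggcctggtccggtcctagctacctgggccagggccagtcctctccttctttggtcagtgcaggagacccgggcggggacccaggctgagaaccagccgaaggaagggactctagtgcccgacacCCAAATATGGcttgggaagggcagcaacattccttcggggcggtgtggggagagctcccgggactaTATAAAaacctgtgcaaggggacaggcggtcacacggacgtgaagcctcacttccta
Acta2: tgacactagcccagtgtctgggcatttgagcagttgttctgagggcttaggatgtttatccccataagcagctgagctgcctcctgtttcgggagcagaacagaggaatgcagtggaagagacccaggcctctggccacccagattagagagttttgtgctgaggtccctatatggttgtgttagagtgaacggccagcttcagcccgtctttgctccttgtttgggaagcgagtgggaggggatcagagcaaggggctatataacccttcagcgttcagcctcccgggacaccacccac
C130080G10Rik: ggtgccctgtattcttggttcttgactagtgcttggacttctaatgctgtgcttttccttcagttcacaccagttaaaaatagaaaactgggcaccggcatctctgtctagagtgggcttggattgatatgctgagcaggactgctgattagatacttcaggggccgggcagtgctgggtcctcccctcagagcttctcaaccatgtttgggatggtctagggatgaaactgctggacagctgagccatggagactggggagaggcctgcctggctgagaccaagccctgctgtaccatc

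Of the 8 symbols, 6 had a promoter in the RefSeq table, all but Actb and Actg2. A CArG box lay in the Actc1 window, 47 bases before the start, as CCAAATAAGG. The Acta1 window held CCAAATATGG, 73 bases before the start, and the Actg1 window held CCATATATGG, 90 bases before it. No exact CArG box was found in the windows of Acta2, C130080G10Rik or A530058N18Rik. An exact box reads CC, then 6 bases of A or T, then GG. Boxes with a mismatch were neither searched nor marked, so their absence from a window is not shown. The box is present in 1.64% of 32544 mouse promoters of this length. TATAAA was found in the Actc1 window (34 bases after the listed start) and in the Acta1 window (7 bases before it), against 13.6% of all promoters. All distances are from the listed RefSeq start, which was not checked as the site where transcription begins. For Actc1 that start is chr2:114052875, inside the GENCODE gene, whose 5′ end is at 114053548. The E-box CANNTG, the element bound by the MyoD family, occurred at least once in all 6 windows and in 72.3% of all promoters. Both strands were searched, no pair of different motifs overlapped, and a match describes the letters only.

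Library totals lay between 17775898 and 20446920 counts. Levels are in CPM, counts relative to the library total after scaling by the trimmed mean of M-values (TMM). A positive log2 fold change means a higher level in Myf5Cre-Pcyt2 muscle, and its error is a standard error (SE). A gene was called when edgeR's quasi-likelihood test gave a Benjamini-Hochberg adjusted p of at most 0.05 over the 14715 genes tested, and 9.02% of these were called higher and 9.59% lower. Pcyt2 itself, counted over the whole gene, had 280, 328 and 272 counts in Myf5Cre-Pcyt2 libraries, against 353, 277 and 277 counts in control libraries. In CPM it had 14.9, 14.3 and 12.6 in Myf5Cre-Pcyt2 libraries, against 18.7, 16.1 and 16.0 in control libraries. These ranges did not overlap, as for 39.0% of all genes tested. The Pcyt2 log2 fold change was −0.28 (SE 0.11) and did not pass (edgeR adjusted p = 0.0944; 0.0872 to 0.706 over 11 alternatives). The labels do not say which exons are floxed, and whole-gene counts do not show them separately. Markers of skeletal myofibres (10 genes) were abundant in all libraries, at a summed 81995 to 111364 CPM in Myf5Cre-Pcyt2 muscle, against 133734 to 191915 CPM in control muscle.

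Cardiac alpha-actin was the isoform that differed most between the groups. Actc1 (ENSMUSG00000068614, chr2:114047282-114053548, minus strand) had 1981, 1210 and 1975 CPM in Myf5Cre-Pcyt2 libraries, against 5951, 10191 and 4916 CPM in control libraries. The highest Myf5Cre-Pcyt2 library was below the lowest control library. The means were 1722 ± 443 CPM in Myf5Cre-Pcyt2 and 7019 ± 2795 CPM in control muscle (SD, n = 3 each), so that Myf5Cre-Pcyt2 muscle held 24.5% of the control level. The log2 fold change was −2.03 (SE 0.28). Among all genes of a library ranked by count, Actc1 stood at places 41, 59 and 40 in Myf5Cre-Pcyt2 libraries, against places 19, 13 and 20 in control libraries.

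Skeletal alpha-actin, the main actin of the adult fibre, was the most abundant isoform everywhere. Acta1 (ENSMUSG00000031972, chr8:123891769-123894751, minus strand) had 34753, 31106 and 32597 CPM in Myf5Cre-Pcyt2 libraries, against 44238, 58606 and 46297 CPM in control libraries. The groups did not overlap, but control replicate 2 stood well above the other control libraries. The means were 32819 ± 1833 CPM in Myf5Cre-Pcyt2 and 49714 ± 7769 CPM in control muscle (SD, n = 3 each), with a log2 fold change of −0.60 (SE 0.21). In every library Acta1 was the first or second gene by count.

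**Figure D1:**
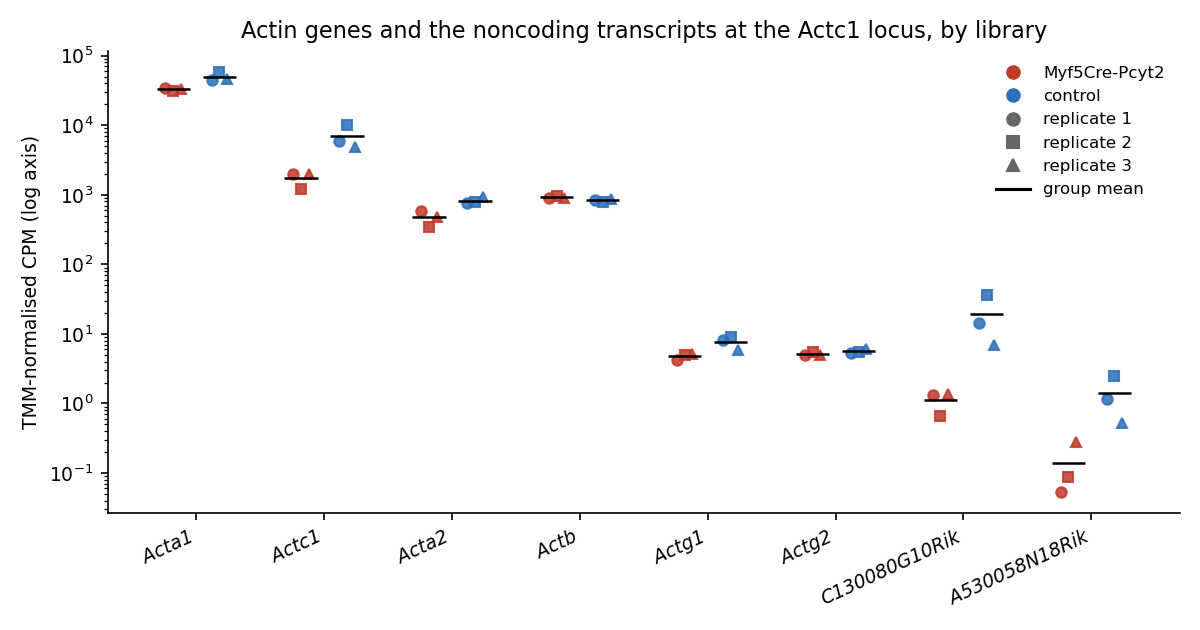
Level of each actin gene and noncoding transcript in each library, in CPM on a log axis, with Myf5Cre-Pcyt2 libraries left of control libraries; points are libraries and lines are group means. Actc1 and C130080G10Rik show the widest gaps between the groups, while the Actg2 values of the groups overlap.

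Because both alpha-actins were lower, their ratio shows how unequally they moved. Per kilobase of exon, Actc1 made up 5.13%, 3.56% and 5.44% of the Acta1 and Actc1 total in Myf5Cre-Pcyt2 libraries, against 11.3%, 14.2% and 9.16% in control libraries. The cardiac share was below every control value in each Myf5Cre-Pcyt2 library, and its means were 4.71 ± 1.01% in Myf5Cre-Pcyt2 and 11.6 ± 2.51% in control muscle (SD, n = 3 each). On raw counts, without division by exon length, the share was 4.95 ± 1.06% in Myf5Cre-Pcyt2 and 12.1 ± 2.62% in control muscle. Acta1 accordingly took 93.0 ± 0.990% of the 6 actins per kilobase in Myf5Cre-Pcyt2 muscle and 86.8 ± 2.13% in control muscle. All 6 actin genes together took 3.92%, 3.77% and 3.88% of the counts of Myf5Cre-Pcyt2 libraries, against 5.01%, 6.0% and 5.15% of the counts of control libraries.

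Scaling by a cytoplasmic actin instead of by library total gave the same direction for the 3 alpha-actins. Actc1 had 2.22, 1.25 and 2.18 counts per Actb count in Myf5Cre-Pcyt2 libraries, against 7.08, 12.9 and 5.64 in control libraries. Acta2 had 0.662, 0.360 and 0.526 counts per Actb count in Myf5Cre-Pcyt2 libraries, against 0.916, 0.990 and 1.05 in control libraries. Acta1 averaged 35.7 ± 3.42 counts per Actb count in Myf5Cre-Pcyt2 muscle and 60.0 ± 12.4 in control muscle (SD, n = 3 each). None of these ratios overlapped between the groups. A ratio to Actb shows unequal change of the pair, not that Actb stayed level.

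The largest relative difference belonged to a noncoding transcript next to Actc1. C130080G10Rik (ENSMUSG00000092397, chr2:114054335-114064868, plus strand) is annotated as antisense, starts 787 bases from the 5′ end of the GENCODE Actc1 gene and is transcribed away from it. The RefSeq starts of C130080G10Rik and Actc1, used for the promoter windows, lie 1521 bases apart. C130080G10Rik had 25, 15 and 30 counts in Myf5Cre-Pcyt2 libraries, against 270, 633 and 120 counts in control libraries. In CPM these were 1.33, 0.655 and 1.39 in Myf5Cre-Pcyt2 muscle and 14.3, 36.7 and 6.95 in control muscle, with no overlap. The log2 fold change was −4.11 (SE 0.59). Summed over libraries, 70 Myf5Cre-Pcyt2 counts stood against 1023 control counts, a scaled level 17.3-fold lower in Myf5Cre-Pcyt2 muscle. The control libraries spread widely, since their highest value was 5.28 times their lowest.

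C130080G10Rik was also lower relative to Actc1. Per 1000 Actc1 counts there were 0.674, 0.541 and 0.702 C130080G10Rik counts in Myf5Cre-Pcyt2 libraries, against 2.40, 3.6 and 1.41 in control libraries. The groups did not overlap in this ratio either. Across the 6 libraries the log2 levels of Actc1 and C130080G10Rik had a Pearson r of 0.995, and deviations from their group means had an r of 0.964. Both are descriptions over 6 libraries that share their depth and scaling. The Actc1 exons share no base with another annotated gene and none of its 50-base windows recurs in another gene's transcripts.

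**Figure D2:**
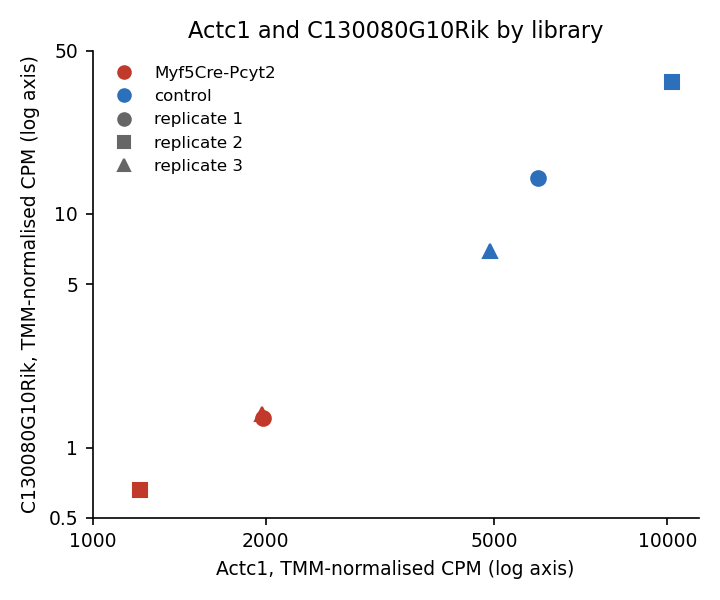
C130080G10Rik against Actc1 in the 6 libraries, both in CPM on log axes. The 3 Myf5Cre-Pcyt2 libraries lie at the low end of both axes and the 3 control libraries at the high end, with control replicate 2 highest on both.

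**Figure D3:**
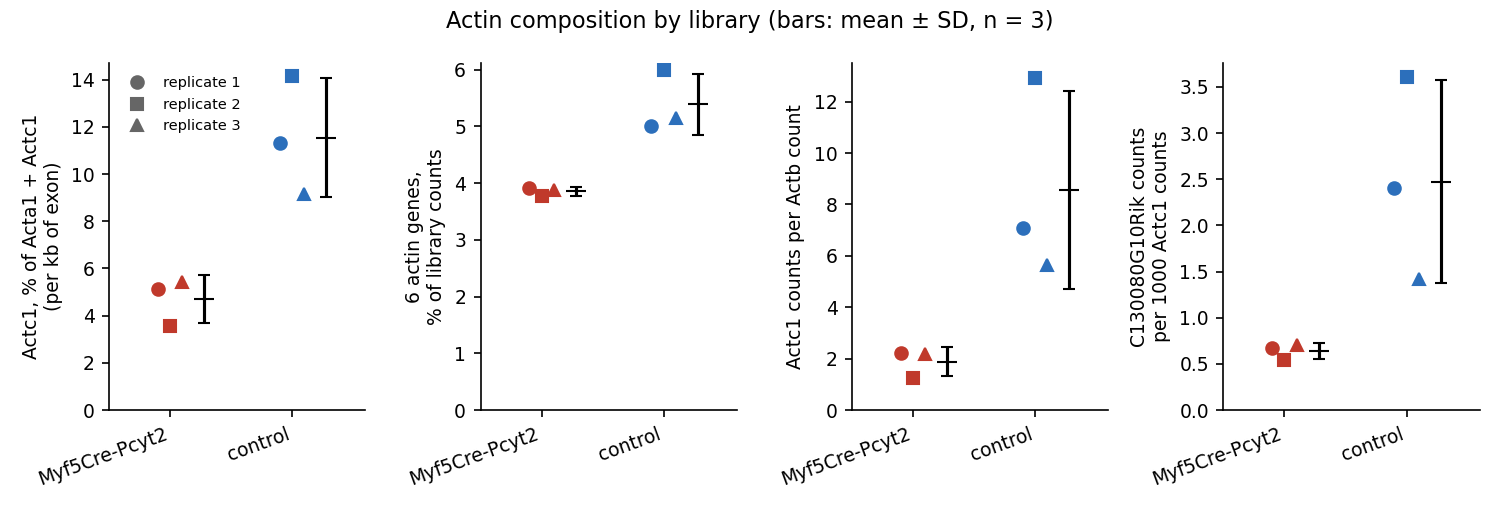
From left to right, the Actc1 share of Acta1 plus Actc1 per kilobase of exon (percent), the share of library counts in the 6 actin genes (percent), Actc1 counts per Actb count, and C130080G10Rik counts per 1000 Actc1 counts. Points are libraries, with Myf5Cre-Pcyt2 left of control, and bars are mean ± SD (n = 3); in each panel the groups do not overlap and control replicate 2 is highest.

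A530058N18Rik is a pair of overlapping entries on the plus strand. The longer one (ENSMUSG00000092201, chr2:114013563-114068324) spans 54762 bases and contains the whole Actc1 gene within its introns, in the opposite direction. It had 1, 2 and 6 counts in Myf5Cre-Pcyt2 libraries, against 22, 43 and 9 counts in control libraries. The groups did not overlap, and the log2 fold change was −3.23 (SE 0.68). Summed counts of 9 in Myf5Cre-Pcyt2 and 74 in control libraries gave a level 9.74-fold lower in Myf5Cre-Pcyt2 muscle. The highest CPM of this entry was 5.19 times its lowest in Myf5Cre-Pcyt2 libraries and 4.78 times its lowest in control libraries. It passed the low-count filter through the control libraries alone. Of its exon bases 73.1% also belong to other genes, 1001 of them to C130080G10Rik, so its counts and those of C130080G10Rik are uncertain where the authors' counting could split them. The shorter entry (ENSMUSG00000087694, chr2:114013602-114032292) had 2, 1 and 0 counts in Myf5Cre-Pcyt2 libraries, against 1, 0 and 0 in control libraries, and was not tested. The sources used here do not give the strand setting of the counting, so reads of genes on opposite strands cannot be told apart where their exons overlap.

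The genes around Actc1 were tested because they played no part in choosing the actins. Of 28 other genes within 1 Mb, 18 had no count in any library and 6 could be tested, of which 1 rose, 1 fell and 4 did not pass, with a median log2 fold change of 0.13. Ryr3, an intracellular calcium release channel of developing muscle, lies 830186 bases from Actc1, towards the edge of the window. It had 51.9, 73.8 and 65.0 CPM in Myf5Cre-Pcyt2 libraries, against 27.3, 14.5 and 22.6 CPM in control libraries. It was higher in all Myf5Cre-Pcyt2 libraries, in the direction opposite to Actc1, with a log2 fold change of 1.57 (SE 0.20, edgeR adjusted p = 0.00201; 2.46e-42 to 0.0140 over 11 alternatives). Zfp770, a zinc-finger gene 139913 bases away, was lower by edgeR (log2 fold change −0.46, SE 0.12, adjusted p = 0.0262). This call was lost under the replicate block, when only library size was used for scaling, and without any single one of Myf5Cre-Pcyt2 replicates 2 and 3 and control replicates 2 and 3 (adjusted p 0.000628 to 0.144 over 11 alternatives). The nearest tested neighbour, Aqr at 47622 bases, had a log2 fold change of 0.06 (edgeR adjusted p = 0.645).

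**Figure D4:**
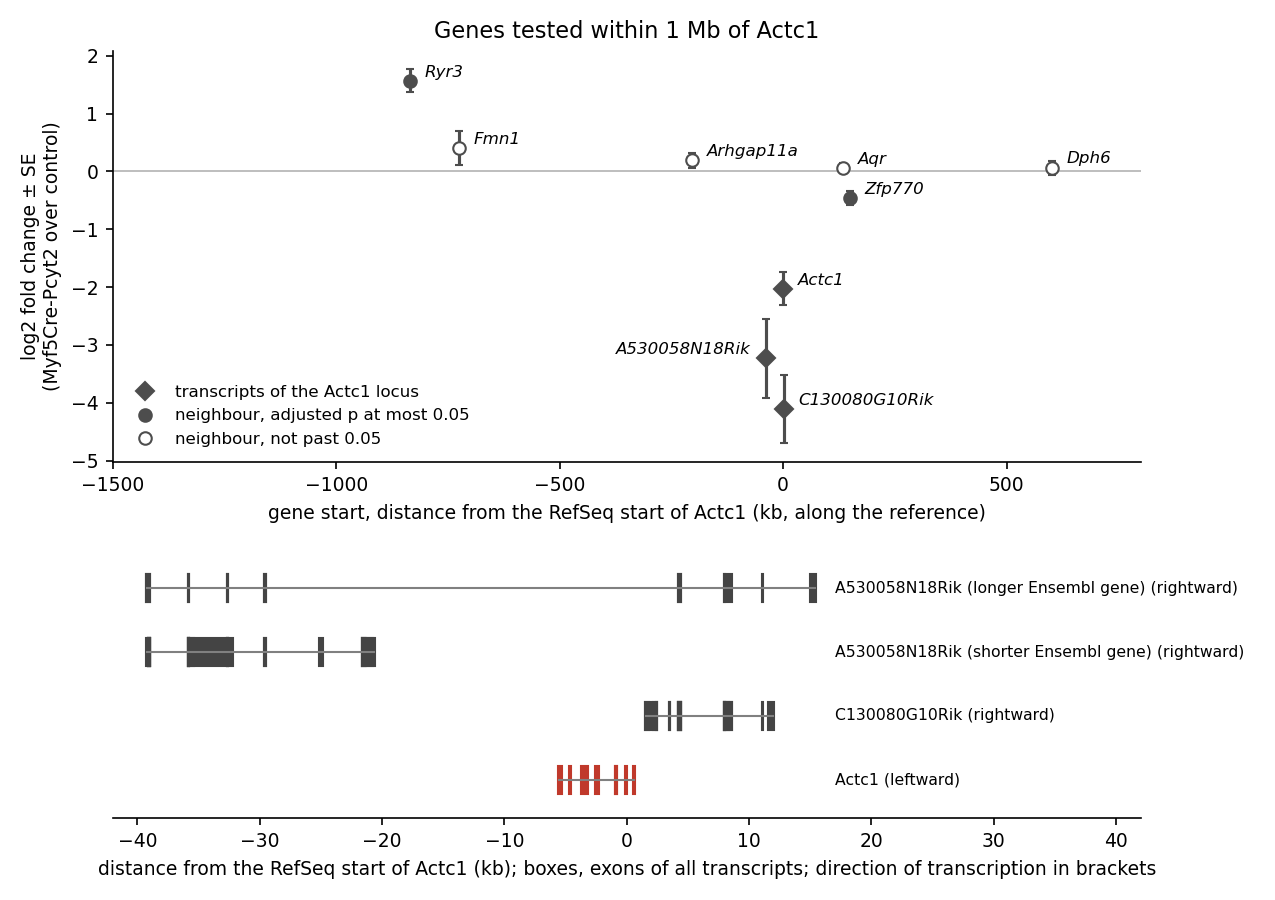
Upper panel, log2 fold change (Myf5Cre-Pcyt2 over control, with SE) of the tested genes within 1 Mb of Actc1 by distance in kilobases from the RefSeq start of Actc1; lower panel, exons of Actc1 and the noncoding genes around it. Actc1 and the noncoding transcripts beside it lie far below 0, Ryr3 lies above 0 at 1.57, Zfp770 lies below 0 at −0.46, and the 4 neighbours that did not pass lie between 0.06 and 0.41.

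Vascular smooth-muscle actin was also lower. Markers of smooth muscle and mural cells are given beside it, and their part in its difference was not tested. Acta2 (ENSMUSG00000035783, chr19:34241090-34255590, minus strand) had 589, 348 and 476 CPM in Myf5Cre-Pcyt2 libraries, against 770, 781 and 918 CPM in control libraries. The groups did not overlap, and the means were 471 ± 121 CPM in Myf5Cre-Pcyt2 and 823 ± 82.5 CPM in control muscle (SD, n = 3 each), with a log2 fold change of −0.81 (SE 0.17). The 14 smooth muscle and mural markers summed to 1756 to 1871 CPM in Myf5Cre-Pcyt2 libraries, against 1830 to 2061 CPM in control libraries, which overlap. By edgeR 1 of the 14 rose (Cspg4, a pericyte proteoglycan, log2 fold change 0.43, adjusted p = 0.0264) and 0 fell, with a median of 0.04. Without any single one of Myf5Cre-Pcyt2 replicates 2 and 3 and control replicates 2 and 3, 0 rose, and without control replicate 1 the test called 1 lower. With library size alone as the scaling, 4 rose. Myh11, the smooth-muscle myosin heavy chain, had a log2 fold change of 0.27 and Tagln, an actin-binding protein of smooth muscle, one of −0.02, and neither passed (edgeR adjusted p = 0.327 and 0.915). Lmod1, another of the 14, had a log2 fold change of −0.15 and did not pass either (edgeR adjusted p = 0.434). These genes were named after their values were seen, and a gene that did not pass is not shown to be unchanged.

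Enteric actin had few counts, and its groups were not separated. Actg2 (ENSMUSG00000059430, chr6:83512905-83536265, minus strand) had 5.02, 5.46 and 4.94 CPM in Myf5Cre-Pcyt2 libraries, against 5.29, 5.57 and 6.14 CPM in control libraries. The ranges overlapped, and the log2 fold change was −0.14 (SE 0.15). Its sign turned to 0.07 with library size alone as the scaling.

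Cytoplasmic beta-actin was the only isoform with a higher mean in Myf5Cre-Pcyt2 muscle. Actb (ENSMUSG00000029580, chr5:142903115-142906754, minus strand) had 891, 966 and 905 CPM in Myf5Cre-Pcyt2 libraries, against 841, 789 and 872 CPM in control libraries. The ranges did not overlap, but the gap was narrow and the log2 fold change was 0.14 (SE 0.10). Its means were 921 ± 40.0 CPM in Myf5Cre-Pcyt2 and 834 ± 41.7 CPM in control muscle (SD, n = 3 each). Cytoplasmic gamma-actin also had few counts. Actg1 (ENSMUSG00000062825, chr11:120345690-120348542, minus strand) had 78, 114 and 113 counts in Myf5Cre-Pcyt2 libraries, against 155, 154 and 102 counts in control libraries. In CPM it was 4.79 ± 0.553 in Myf5Cre-Pcyt2 and 7.68 ± 1.58 in control muscle (SD, n = 3 each), with a log2 fold change of −0.68 (SE 0.18) and no overlap after scaling.

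The Actg1 value is uncertain because much of its sequence exists elsewhere. Of its 50-base windows, 37.4% recur in the transcripts of other genes and 36.3% in pseudogenes, against 9.12% for Actb, 2.02% for Acta1, 0.326% for Acta2 and 0 for Actg2. The sources used here give neither the read length nor how reads with several mapping places were treated, and their part in the low Actg1 counts was not tested. The coding sequences of the isoforms are 81.5% to 88.7% identical, at 86.2% for Acta1 and Actc1 and 88.7% for Actb and Actg1.

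Levels of different genes are comparable only per length. In CPM per kilobase of exon the order in Myf5Cre-Pcyt2 muscle was Acta1 (21366 ± 1193), Actc1 (1064 ± 274), Actb (344 ± 14.9), Acta2 (215 ± 55.0), Actg2 (3.30 ± 0.179) and Actg1 (1.80 ± 0.208). In control muscle it was Acta1 (32366 ± 5058), Actc1 (4338 ± 1728), Acta2 (375 ± 37.6), Actb (311 ± 15.6), Actg2 (3.64 ± 0.277) and Actg1 (2.89 ± 0.594), each a mean ± SD over 3 libraries. Acta2 and Actb therefore changed places between the groups. Neighbours in these orders did not overlap over the 3 libraries of a group. C130080G10Rik averaged 0.435 ± 0.158 in Myf5Cre-Pcyt2 and 7.47 ± 6.0 in control muscle on this scale.

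By the calling rule, which is no test of genes selected on this contrast, 5 of the 8 entries that passed the filter were lower (Actc1, Acta2, Actg1, C130080G10Rik and the longer A530058N18Rik entry) and 0 higher, where 9.59% of all genes were called lower. Actg1 was not called under 6 of the 11 alternatives, and Acta1, not among the 5, was called by DESeq2, with library size alone and without a filter. The groups did not overlap for 7 of the 8, and for 39.0% of all genes tested. The choice of these genes used the same contrast, so nothing is read from either count. Without Myf5Cre-Pcyt2 replicate 2 the number called lower was 3, and without control replicate 2 it was 3. The longer A530058N18Rik entry was not called in the first of these fits. In the second it did not pass the filter and was not tested, so only 10 alternatives cover it.

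The libraries of a group also differed among themselves in a recurring order. Control replicate 2 was the highest control library for Acta1, Actc1, Actg1, C130080G10Rik and the longer A530058N18Rik entry, and the lowest for Actb. Myf5Cre-Pcyt2 replicate 2 was the lowest of its group for Acta1, Actc1, Acta2 and C130080G10Rik and the highest for Actb. Relative spread was widest in the noncoding transcripts and narrow in Actb. The coefficient of variation of C130080G10Rik was 36.3% in Myf5Cre-Pcyt2 and 80.3% in control muscle, that of Actc1 was 25.8% in Myf5Cre-Pcyt2 and 39.8% in control muscle, and that of Actb was 4.34% in Myf5Cre-Pcyt2 and 5.0% in control muscle.

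Genes that cap, sever, lengthen or stabilise the thin filament were called at a share close to that of all genes, which was 18.6% in either direction. Of 30 tested thin filament regulators, 1 rose and 4 fell by edgeR, where 9.02% of all genes were called higher and 9.59% lower. Their median log2 fold change was −0.06, beside −0.002 over all genes tested, 11 had an unadjusted p under 0.05 and DESeq2 called 8. Tmod4, the skeletal tropomodulin that caps the pointed end of the filament, fell (log2 fold change −0.63, SE 0.11, edgeR adjusted p = 0.00541). Xirp2, an actin-binding Xin-repeat protein of striated muscle, fell by 0.61 on the log2 scale (SE 0.15, edgeR adjusted p = 0.0180). Lmod2, a leiomodin that nucleates and lengthens thin filaments, rose (log2 fold change 0.41, SE 0.10, edgeR adjusted p = 0.0191). The other genes that fell, named after their values were seen, were Capza2 and Capzb, subunits of the capping protein at the barbed end. The 4 lower genes were 1 when Myf5Cre-Pcyt2 replicate 2 was left out, 2 without Myf5Cre-Pcyt2 replicate 3, 2 without control replicate 2 and 1 with the replicate block. Tmod4 passed under all 11 alternatives, whereas Xirp2 did not pass with the replicate block or without Myf5Cre-Pcyt2 replicate 2, and Lmod2 did not pass without any single one of Myf5Cre-Pcyt2 replicates 2 and 3 and control replicate 2.

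The SRF list holds the factor, its co-activators and textbook target genes. Of its 31 tested genes 2 rose and 6 fell by edgeR, where 9.02% of all genes were called higher and 9.59% lower. Their median log2 fold change was −0.01. Srf itself fell by 0.36 on the log2 scale (SE 0.08, edgeR adjusted p = 0.0166), a call lost with library size alone and without any of Myf5Cre-Pcyt2 replicates 2 and 3 and control replicate 2. Abra, an actin-binding activator of SRF signalling in striated muscle, fell (log2 fold change −0.56, SE 0.10, edgeR adjusted p = 0.00629). Cnn3, a calponin of non-muscle and smooth-muscle cells, rose (log2 fold change 0.44, SE 0.08, edgeR adjusted p = 0.00615). The other called genes, named after their values were seen, were Flna, a filamin, which rose, and the tropomyosin gene Tpm1 and the early-response genes Ccn1, Fos and Ier2, which fell. Genes of this list were called in both directions, as were all genes tested, so nothing is read from that. The alpha-actins are not among the 31. The 6 lower genes were 1 when Myf5Cre-Pcyt2 replicate 2 was left out, 1 without Myf5Cre-Pcyt2 replicate 3 and 2 without control replicate 2, while Abra and Cnn3 passed under all 11 alternatives.

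Genes that nucleate actin filaments were called at a share close to that of all genes, of which 18.6% were called in either direction. Of 28 nucleation genes 2 rose and 3 fell, with a median of 0.07, among them the Arp2/3 subunit Arpc5l (log2 fold change −0.42, SE 0.11, edgeR adjusted p = 0.0228) and the formins Fmnl2 (0.31, SE 0.08, adjusted p = 0.0280) and Fhod1 (−0.50, SE 0.15, adjusted p = 0.0396). None of these 3 passed when Myf5Cre-Pcyt2 replicate 2, Myf5Cre-Pcyt2 replicate 3 or control replicate 2 was left out. Of 17 genes for actin folding and modification, which include the chaperonin that folds new actin, 0 passed edgeR, with 3 at an unadjusted p under 0.05 and 0 by DESeq2. The smallest p in that list belonged to Naa80, the enzyme that acetylates the actin N-terminus, at a log2 fold change of −0.36 (edgeR adjusted p = 0.0837). Among 7 tested actin-related genes 0 passed edgeR, with 2 at an unadjusted p under 0.05 and 1 by DESeq2. The smallest p there was that of Actr1b, a dynactin subunit (log2 fold change −0.31, edgeR adjusted p = 0.0640). Actl6b, Actrt1, Actrt2, Actl7a and Actl11 had no count in any library.

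**Figure D5:**
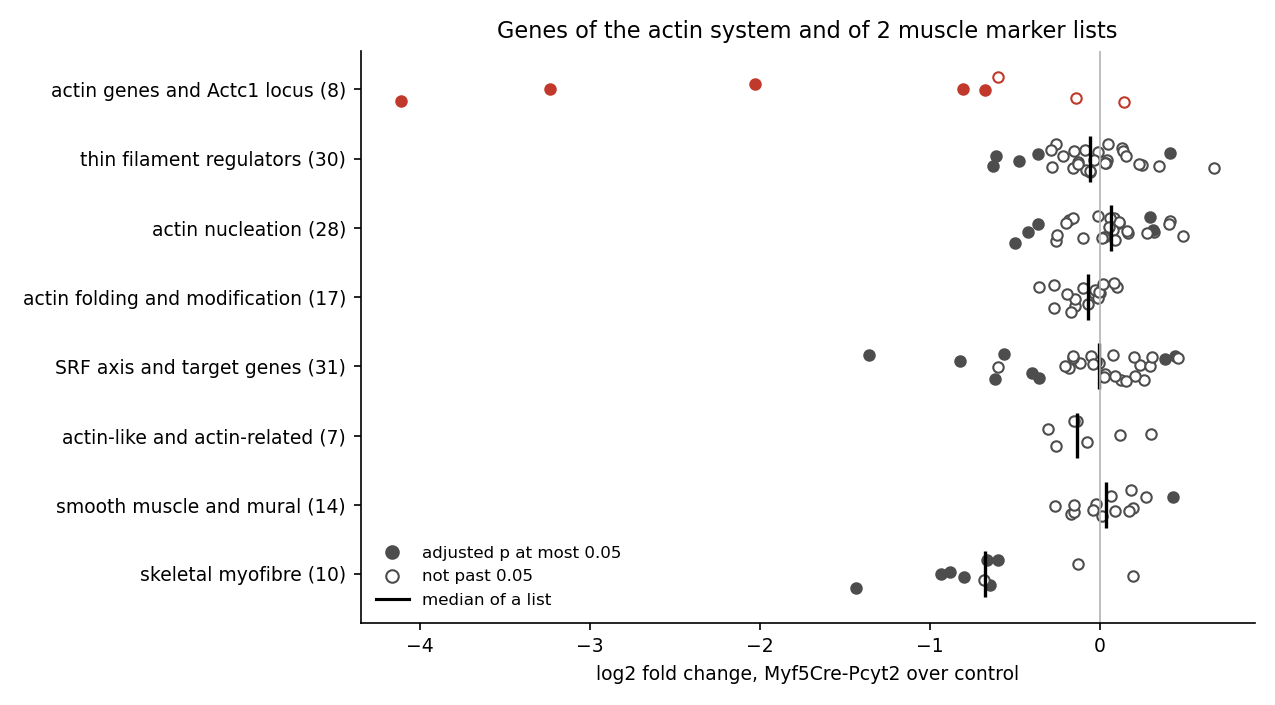
Log2 fold changes (Myf5Cre-Pcyt2 over control) of the 8 tested entries of the actin genes and the Actc1 locus, shown in red. The other rows hold the tested genes of 5 actin lists and 2 muscle marker lists. Each point is a gene, filled points have an edgeR adjusted p of at most 0.05, and black lines are list medians, which lie between −0.13 and 0.07 for the actin lists and at −0.68 for myofibre markers.

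Marker lists named after cell types are given beside these values, and their part in the actin differences was not tested. Bulk counts do not show which cells made a transcript, so a list does not show that its cell type was present. Of all genes tested, 9.02% were called higher and 9.59% lower. Myofibre markers (Ckm, Mylpf, Tnnt3, Tnni2, Myh4, Ttn, Des, Casq1, Actn3 and Pvalb) were lower for 7 of 10 genes and higher for 0. Their median was −0.68, with Pvalb, the fast-fibre calcium buffer, at −1.44 (SE 0.28, edgeR adjusted p = 0.00869). The list includes fast-fibre genes, so fewer fibres and a different fibre type or maturity cannot be told apart by it. The 7 lower genes were 1 when Myf5Cre-Pcyt2 replicate 2 was left out, 1 without Myf5Cre-Pcyt2 replicate 3, 4 without control replicate 2 and 1 with the replicate block. Cardiomyocyte markers, of which Nppb and Nkx2-5 had no count in any library, summed to 139 to 245 CPM in Myf5Cre-Pcyt2 libraries, against 50.5 to 106 CPM in control libraries, and 3 of 7 tested genes rose (1 without Myf5Cre-Pcyt2 replicate 2). The one with the smallest p was Myh6, the alpha myosin heavy chain of the heart. It had 9.50, 110 and 65.7 CPM in Myf5Cre-Pcyt2 libraries, against 5.13, 3.13 and 4.34 CPM in control libraries. Satellite cell and myoblast markers summed to 213 to 249 CPM in Myf5Cre-Pcyt2 libraries, against 175 to 198 CPM in control libraries, and 3 of 6 rose (1 without any single library other than control replicate 3), led by Pax7 (log2 fold change 0.69, edgeR adjusted p = 0.00421). Schwann cell markers rose for 4 of 5 genes, at 604 to 821 CPM in Myf5Cre-Pcyt2 libraries and 404 to 497 CPM in control libraries, led by Sox10, and for 2 without Myf5Cre-Pcyt2 replicate 2.

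Fibroblast markers, which include collagen genes, summed to 16108 to 18121 CPM in Myf5Cre-Pcyt2 libraries, against 11532 to 15171 CPM in control libraries, and 1 of 6 rose (Pdgfra, a growth factor receptor of muscle fibroblasts, log2 fold change 0.54, edgeR adjusted p = 0.00323). DESeq2 called 3 of the 6 fibroblast genes higher, and scaling by library size only gave 5. Endothelial markers summed to 663 to 755 CPM in Myf5Cre-Pcyt2 libraries, against 633 to 799 CPM in control libraries. Macrophage markers summed to 137 to 164 CPM in Myf5Cre-Pcyt2 libraries, against 124 to 153 CPM in control libraries. Adipocyte markers summed to 434 to 506 CPM in Myf5Cre-Pcyt2 libraries, against 320 to 889 CPM in control libraries. All 3 sums overlapped between the groups. By edgeR 1 of 5 endothelial genes fell (Emcn, 0 without any single library other than control replicate 3), and 0 of 5 macrophage and 0 of 5 adipocyte genes passed, with 2 macrophage and 1 adipocyte gene at an unadjusted p under 0.05 and 0 by DESeq2 in either list. Without a filter on low counts 4 adipocyte genes were called lower, and 1 was without control replicate 2. Of the macrophage genes 2 were called higher when only library size was used for scaling, and without a filter 2 were called higher and 1 lower. Leaving out Myf5Cre-Pcyt2 replicate 1 or control replicate 3 gave 1 macrophage gene called higher.

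The named genes most like Actc1 across the 6 libraries, by Pearson r of log2 CPM among 13378 genes with a mean of at least 1 CPM, were Slc41a3 (r = 0.999), Fbxw5 (0.998), Pon3 (0.997), Cpe (0.997) and Trim24 (0.997). Their log2 fold changes lay between −1.29 and −0.31, a direction that likeness to Actc1 already fixes. C130080G10Rik stood at place 16 and Acta1 (r = 0.977) at place 161, while Actb had an r of −0.958. With group means removed, the closest were Cpe (r = 0.9996), Ascc1 (0.9995), Hsp90ab1 (0.9990), Mfn2 (0.9987) and Nf2 (0.9963), and only Cpe was in both lists. On that measure C130080G10Rik stood at place 102, Acta1 at place 663 (r = 0.860) and Actb at the far end with an r of −0.987. These correlations rest on 6 libraries with a shared scaling and carry no test.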

How the data were processed

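Quadriceps RNA was sequenced in 3 Myf5Cre-Pcyt2 and 3 control libraries, with 1.3 µg of total RNA a library per the labels. The deposited values are raw counts per Ensembl gene. The submitters' processing notes name Subread 1.6.2 with featureCounts, Bowtie2 2.3.4.1, Trim Galore 0.5.0 and the build mm10 (GRCm38), in no stated order. The sources used here give no annotation release, strand setting, read length or treatment of reads mapping to several places.

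Names, positions and exon lengths came from GENCODE M21 and promoters from RefSeq (GRCm38.p6). Genes passing edgeR's filterByExpr on the group were scaled by TMM and compared with edgeR 4.0.16 (R 4.3.3), two-sided, with Benjamini-Hochberg adjustment. The SE of an edgeR log2 fold change was derived from the test, as the size of the change divided by the square root of the quasi-likelihood F statistic. Log2 CPM for correlations used a prior count of 2. Alternatives were DESeq2 1.42.0, its size factors in edgeR, library size alone, no filter, a replicate block and leaving out each library.

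The members, lists, tests and alternatives were chosen with earlier results of these data known. Named were all members, the 3 called genes with the smallest p of each pathway list and of the neighbours (or 1 gene where none passed), 1 called gene per marker list, and the 5 genes most like Actc1 by each measure, without unnamed gene models. Whether pups shared a litter is not in the labels, and p-values reflect only how these 6 libraries vary. In none of the within-group pairs did counts agree within sampling noise.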

Additional observations from a re-analysis of the deposited data

How the results depend on the processing

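Over 11 alternatives the log2 fold change was −2.23 to −1.66 for Actc1, −1.0 to −0.61 for Acta2 and −4.51 to −3.25 for C130080G10Rik, ranges that describe genes selected on this contrast. Scaling by library size only moved the all-gene median log2 fold change by 0.21 and gave 3225 genes higher and 499 lower, Actb as 1 actin called higher, thin filament regulators 6 higher and 2 lower, the SRF list 8 higher and 3 lower, nucleation 7 higher and 0 lower, and 0 neighbours lower. DESeq2 gave 7 thin filament regulators lower, 0 nucleation genes higher and 1 actin-related gene lower, and its size factors gave 1 nucleation gene higher. Without a filter, 3 thin filament regulators and 0 nucleation genes were higher and 1 actin-related gene was lower.

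Replicate numbers did not pair the libraries (same-number correlations −0.111, −0.174 and 0.018). The replicate block gave 865 genes higher and 866 lower. It gave 1 thin filament regulator lower, 1 SRF gene higher, 0 nucleation genes higher and 1 lower, and 0 neighbours lower. The 5 entries called lower (Actc1, Acta2, Actg1, C130080G10Rik and the longer A530058N18Rik entry) stayed lower.

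Leaving out 1 library gave 422 to 1337 genes higher and 424 to 1448 lower, both lowest without Myf5Cre-Pcyt2 replicate 2. It gave 0 to 2 thin filament regulators higher and 1 to 5 lower, and 1 to 3 SRF genes higher and 1 to 6 lower. Of the nucleation genes 0 to 2 were higher and 0 to 3 lower. Lower were also 0 to 1 actin-related genes, 0 to 1 neighbours and 3 to 5 entries of the actin genes and the Actc1 locus. The Actc1 share of striated actin was 4.35% to 5.29% in Myf5Cre-Pcyt2 and 10.2% to 12.7% in control muscle. The cause of these shifts was not tested. Low counts limit A530058N18Rik and Actg1.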
